A study of Mus musculus with 10 samples.

Results

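The cytosolic ribosomal protein genes were examined in the dentate gyrus of wild-type mice and of mice with a knockout of Fndc5. Members were chosen by gene symbol alone: symbols made of Rpl or Rps and a number, with or without a closing a or x, together with Rplp0, Rplp1, Rplp2, Rpsa and Rps3a1. Pseudogene rows and predicted genes were left out. The rule found 77 genes among 24982 rows, of which 46 belong to the large (60S) subunit and 31 to the small (40S) subunit. The low-count filter kept 74 of them among 14867 genes tested, all 31 of the small subunit and 43 of the large. The untested members were Rpl26, Rpl30 and Rpl34.

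The small subunit reads the messenger RNA and the large subunit joins the amino acids, and each is a core of ribosomal RNA wrapped in proteins, most of which occur once in each ribosome. Vertebrate ribosomal protein messengers carry a 5′ terminal oligopyrimidine (TOP) tract, a C at the cap followed by further C and T bases, through which the kinase mTORC1 and the RNA-binding protein Larp1 set their translation. In neurons, local translation in dendrites and axons depends on ribosomes, and synaptic plasticity in the hippocampus requires new protein.

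Bulk RNA was sequenced from the micro-dissected dentate gyrus, where the granule neurons of the hippocampus lie, of 10 male C57BL/6 mice aged 10 weeks. The 5 wild types (WT) and the 5 global knockouts of Fndc5 (KO), the gene of the irisin precursor, gave 1 library a mouse. Stranded poly(A) libraries were read as single ends of 75 bases, and depth ran from 26226375 to 43802079 counts per library. P-values measure the spread between these mice.

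Fndc5, the check of the labels, was lower in all 5 KO libraries (45.4 to 56.7 CPM, counts scaled by library size) than in all 5 WT libraries (69.2 to 80.3 CPM). Its log2 fold change was -0.55 (SE 0.057, edgeR quasi-likelihood adjusted p = 0.000495), and it was the only gene of 14867 past the adjusted threshold of 0.05. Reads were still counted for Fndc5 in the knockouts, and the table does not show over which exons. All 18 granule neuron markers were detected, summing to 3499 to 4129 CPM in WT and 3839 to 4099 CPM in KO. In bulk RNA, fewer cells of a type and less RNA per cell cannot be told apart.

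Promoter sequences show a feature that many members share and the symbol rule did not use. RefSeq start windows (GRCm38.p6) were matched for 57 of the 77 members. The windows below run from 15 bases before to 15 bases after the annotated start on the gene's strand, 5′ to 3′, and the start is the 16th base. A tract was taken as a C with 4 or more pyrimidines after it. Capitals mark, of the tracts that can be read from a C within 10 bases of the start, the one nearest to it, and pyrimidines before it and other tracts are in lower case. The windows are shown because the annotated start is itself such a C in the first 6, whereas no tract can be read from a C within 10 bases of the start in the last pair.
Rps6: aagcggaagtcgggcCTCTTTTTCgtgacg
Rps10: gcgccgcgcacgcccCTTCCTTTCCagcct
Rps15a: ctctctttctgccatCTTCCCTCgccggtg
Rpl15: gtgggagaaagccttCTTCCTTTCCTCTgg
Rpl28: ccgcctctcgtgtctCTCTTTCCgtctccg
Rpl35: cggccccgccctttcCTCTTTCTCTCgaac
Rps3: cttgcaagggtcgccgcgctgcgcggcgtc
Rpl4: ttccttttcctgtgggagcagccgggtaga

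The windows lie at chr4:86857353-86857382 (minus strand, Rps6), chr17:27635230-27635259 (minus, Rps10), chr7:118116133-118116162 (minus, Rps15a), chr14:18270972-18271001 (minus, Rpl15), chr7:4792950-4792979 (plus, Rpl28), chr2:39005117-39005146 (minus, Rpl35), chr7:99483695-99483724 (minus, Rps3) and chr9:64173372-64173401 (plus, Rpl4). The annotated start was the C of a tract in 13 of 57 members (22.8%), against 3.01% of the 27025 genes with a window. A tract read from a C within 10 bases of the start on either side was found in 34 of 57 members (59.6%), against 34.4% of all genes. Annotated starts can be off by some bases, and a window without these letters says nothing of the messenger's true first base. The Rpl4 window holds a tract, in lower case, more than 10 bases before its RefSeq start. The gene start of Rpl4 in another annotation (GENCODE M21), chr9:64173375, is a C of that tract.

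Short motifs were counted on both strands over 250 bases before to 50 bases after the start, and a gene counted when any of its windows held the motif. CGGAAG, the core bound by ETS factors, was in 40 of 57 members (70.2%) and in 18.8% of all genes. TTTCCG, whose reverse complement shares the letters CGGAA with that core, was in 22 members (38.6%) against 10.0%. GGGCGG, a core of SP factors, was in 35 members (61.4%) against 38.2%, and AAGATGG, from the YY1 motif, in 9 (15.8%) against 7.28%. CACGTG, the E box core, was in 6 members (10.5%) against 8.09%. TATAAA, the TATA box, was in 6 (10.5%) against 15.7%. These are letter matches and not measured binding. The 250 bases before the start of Rps6, the small subunit protein phosphorylated by S6 kinases, are shown because they hold CGGAAG 3 times, counting both strands, at chr4:86857368-86857617 on the minus strand, with the matches in capitals.
Rps6 upstream: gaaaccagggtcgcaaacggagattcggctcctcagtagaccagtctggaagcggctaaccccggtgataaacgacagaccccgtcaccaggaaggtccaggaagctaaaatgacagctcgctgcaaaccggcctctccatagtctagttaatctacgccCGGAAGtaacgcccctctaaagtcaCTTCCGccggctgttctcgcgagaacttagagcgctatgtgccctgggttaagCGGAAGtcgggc

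Ribosomal protein transcripts differed in level far more between genes than between libraries. Levels between genes were compared as CPM per kilobase of coding sequence. The median was 147 over the 77 members (quartiles 98.5 and 221), 144 for the large subunit and 149 for the small. The highest large subunit value was Rpl41, a protein of 25 residues, at 1014 ± 44.5 CPM per coding kilobase (SD over 10 libraries), but its coding length of 78 bases is close to the read length and overstates a per-length value. Next came Rplp1, an acidic protein of the stalk that recruits elongation factors, at 511 ± 25.2, and Rpl4, whose long loop reaches into the exit tunnel, at 379 ± 16.3. The highest of the small subunit were Rps29 at 548 ± 34.0, Rps15 at 375 ± 18.2 and Rps21 at 360.0 ± 17.9 CPM per coding kilobase. Coding sequences were also short for Rps29 (171 bases) and Rps21 (252 bases), beside a median of 459 over the members. The scale leaves out untranslated regions, so values of short coding sequences can be overstated.

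A few members were close to absent in the count table. Rpl26, at the rim of the exit tunnel, had 0 counts in every library, which allows up to 3 counts in a library by counting error alone. Rpl30 had 5, 3, 9, 4 and 3 counts in WT 1 to 5 and 11, 6, 12, 3 and 2 counts in KO 1 to 5. Rpl34 had 10, 7, 15, 5 and 9 counts in WT and 14, 9, 15, 7 and 8 counts in KO, and Rps27 had 21, 17, 29, 24 and 16 counts in WT and 15, 20, 23, 16 and 13 counts in KO. These 4 rows lay far under all other members in both genotypes. The next lowest levels were 42.9 for Rpl27 in the large subunit, and 48.1 for Rps10 and 64.8 for Rps16 in the small, all in CPM per coding kilobase.

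Copies elsewhere in the genome limit these levels. Mammalian ribosomal protein genes have many processed pseudogenes, and how reads that fit several places were counted is not given in the sources used here. For each member, the share of 75-base coding windows that occur letter for letter in a transcript of another gene (GENCODE M21) was computed. The median was 85.1%, 24 members had every window shared, and 8 had under 20%. Rps3 had 0%, Rpl4 10.5%, Rps27 100%, Rpl26 71.4%, Rpl30 72.6% and Rpl34 60%. The 8 members under 20% had a median level of 236 CPM per coding kilobase, and the others 139.6. Over the 77 genes, level and shared percentage had a Spearman rho of -0.28, as a description across genes that share libraries. Levels of members with shared windows are therefore uncertain, and the part of shared reads in them was not tested.

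**Figure D1:**
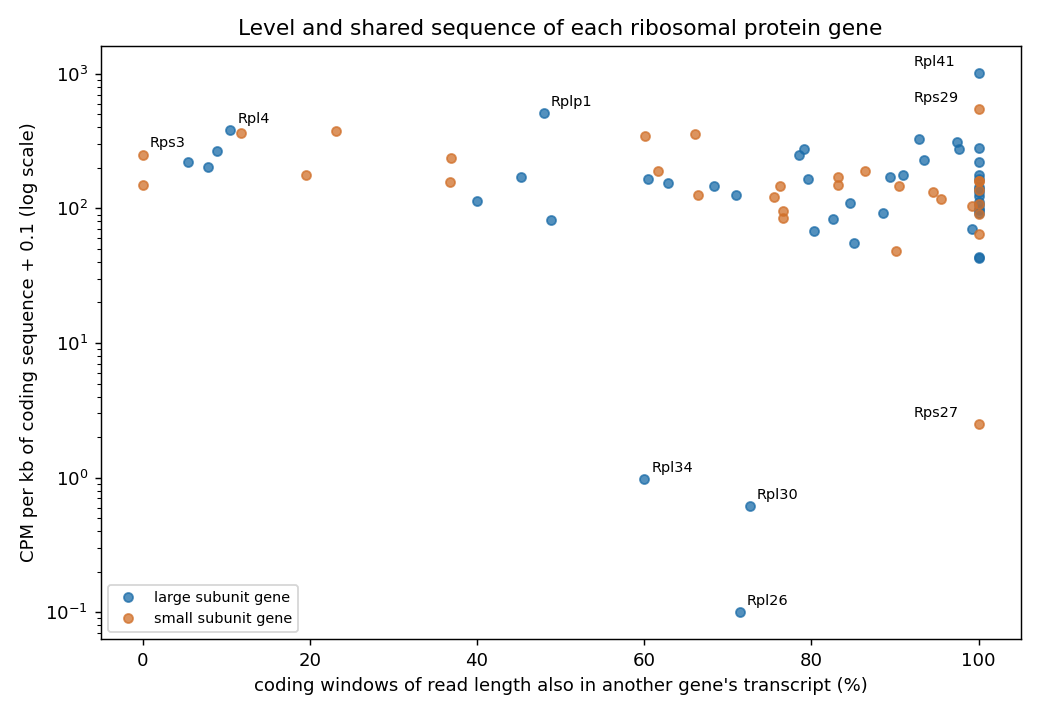
Level of each of the 77 ribosomal protein genes (mean over 10 libraries, CPM per kilobase of coding sequence plus 0.1, log scale) against the percentage of its 75-base coding windows found in another gene's transcript. Most genes lie near the median of 147, and Rpl26, Rpl30, Rpl34 and Rps27 lie far under the rest. Their shared windows make up 60% to 100%, beside a median of 85.1% over the 77 genes.

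No ribosomal protein transcript passed the adjusted threshold between genotypes, and the differences were small and mostly above 0. In the edgeR quasi-likelihood fit 0 of 74 members were called (all genes, 0.00673% called), and the lowest Benjamini-Hochberg adjusted p was 0.788. DESeq2 and limma-voom also called 0. At an unadjusted p under 0.05, 3 members were higher in KO (2.54% of all genes) and 1 was lower (3.75% of all genes). Fitted log2 fold changes ran from -0.21 to 0.13 with a median of 0.032, beside 0.0016 over all genes tested. They were above 0 for 60 of 74 members (81.1%) and for 50.7% of all genes. The share was 35 of 43 in the large subunit (median 0.032) and 25 of 31 in the small (median 0.032). After a correction of each library for GC content and length, 49 of 74 were above 0 with a median of 0.022. The corrected median was 0.0164 for the large subunit and 0.0255 for the small. Single members moved unequally under this correction. Rplp1 went from 0.069 to 0.019 and Rpl36 from 0.13 to 0.070, whereas Rpl4 went from 0.066 to 0.070 and Rps3 from 0.054 to 0.058. The values of single members below are without it unless stated. The 95% interval of 73 of the 74 members lay within 1.25-fold either way, and that of Rps27 did not. The libraries of the genotypes did not overlap in 1 member higher in KO (0.457% of all genes) and in 0 members lower in KO (0.437% of all genes).

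**Figure D2:**
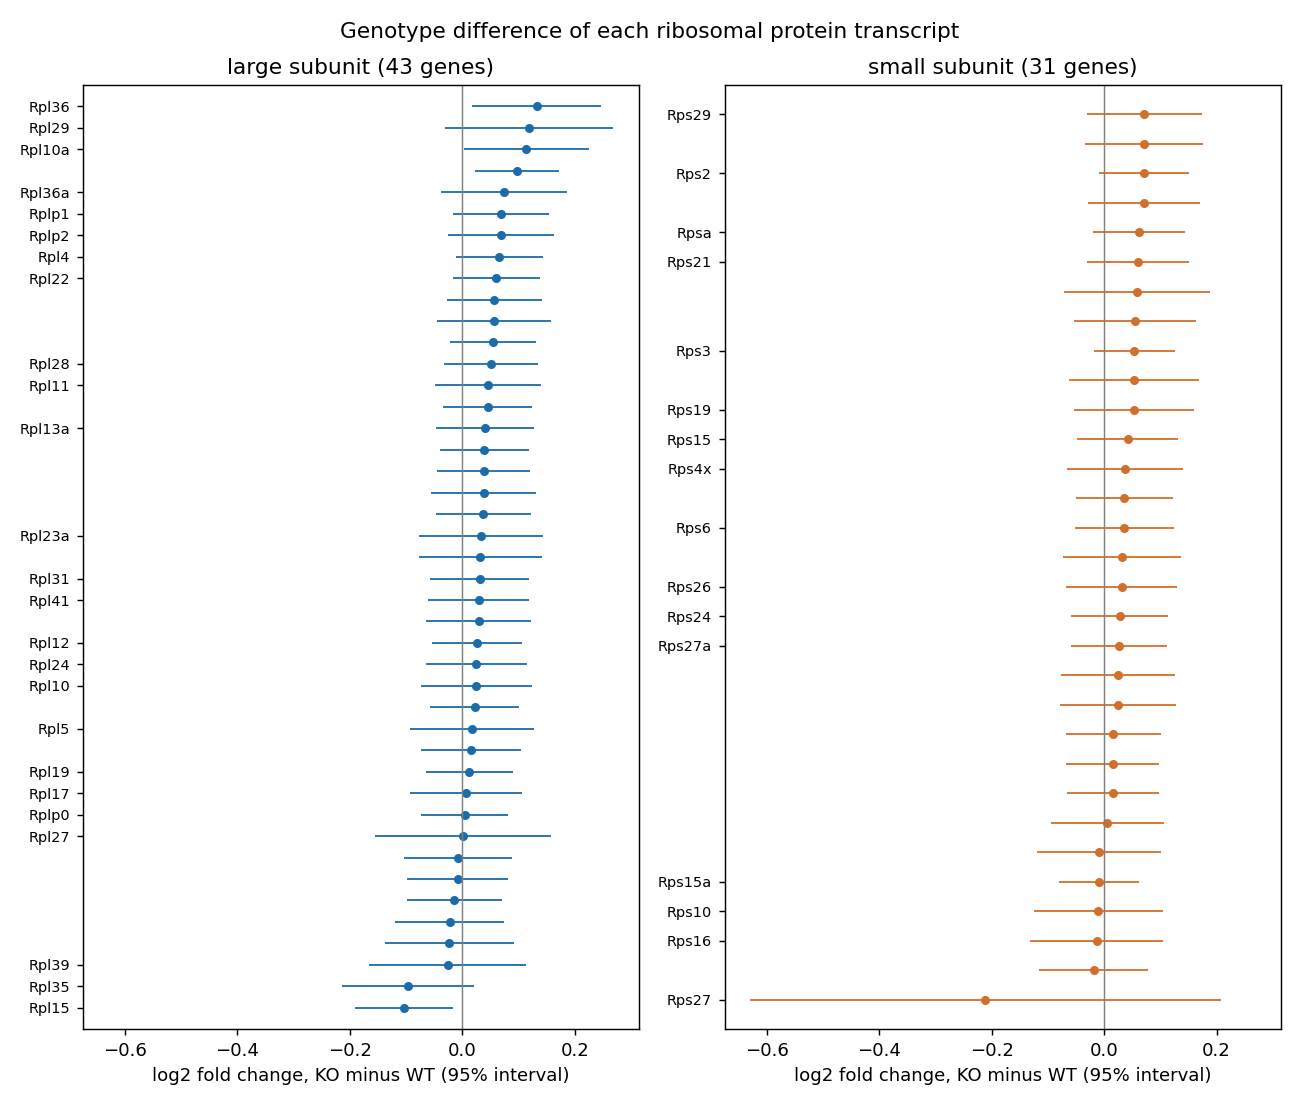
Log2 fold change, KO minus WT, of the 43 large and 31 small subunit transcripts tested, with 95% intervals from the edgeR fit, ordered by size, with names for the transcripts described in the text. Most points lie a little above 0 with intervals that include it, from -0.21 for Rps27 to 0.13 for Rpl36.

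Rpl15 had the lowest log2 fold change of the large subunit and, as shown above, a tract of 13 pyrimidines at its annotated start. It was at 58.2, 62.9, 65.7, 62.8 and 58.7 CPM in WT 1 to 5 and 56.5, 58.4, 57.1, 58.9 and 56.2 CPM in KO 1 to 5. WT 1 and WT 5 lay among the KO values and the other 3 WT mice above them. This amounted to a log2 fold change of -0.10 (SE 0.041, 95% interval -0.19 to -0.016) and an adjusted p of 0.788 in edgeR.

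Rpl36, of the large subunit, was at 26.5, 27.4, 27.4, 29.6 and 28.8 CPM in WT 1 to 5 and 30.4, 30.8, 34.0, 29.4 and 28.2 CPM in KO 1 to 5, a log2 fold change of 0.13 (SE 0.054, 95% interval 0.017 to 0.25). The KO 4 and KO 5 values lay inside the WT range and KO 3 was highest. Rpl10a, at the L1 stalk where spent transfer RNA leaves, was at 26.3, 24.8, 27.2, 30.1 and 28.6 CPM in WT and 29.1, 29.1, 30.4, 29.7 and 29.98 CPM in KO, a log2 fold change of 0.11 (SE 0.052, 95% interval 0.0036 to 0.22). Here WT 4 lay inside the KO range, and the other 4 WT mice were under every KO mouse. Both had an edgeR adjusted p of 0.788.

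Of the proteins that line the exit tunnel or its rim, through which the new chain leaves, 7 of 8 were tested, 0 passed and 5 were above 0 (median 0.013). Rpl4 was at 444, 474, 483, 479.6 and 451 CPM in WT 1 to 5 and 484, 465, 515, 496 and 481 CPM in KO 1 to 5. WT 1 and WT 5 were low, KO 3 was high and the groups overlapped. That was a log2 fold change of 0.066 (SE 0.036) and an edgeR adjusted p of 0.80. Rpl35, which sits at the rim where chaperones dock, was at 32.4, 34.4, 32.3, 31.0 and 30.8 CPM in WT and 31.0, 27.9, 33.5, 28.0 and 29.9 CPM in KO, with KO 2 and KO 4 the lowest and WT 2 the highest. This corresponds to a log2 fold change of -0.096 (SE 0.055) and an edgeR adjusted p of 0.80. The other log2 fold changes were 0.031 for Rpl31, 0.034 for Rpl23a, the docking site of the signal recognition particle, 0.013 for Rpl19, 0.0072 for Rpl17 and -0.026 for Rpl39.

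The stalk that recruits the elongation factors is built from Rplp0, its anchor, Rplp1 and Rplp2, its mobile acidic arms, and Rpl12 at its base. Without the GC and length correction all 4 were above 0 (median 0.048) and 0 passed. With it the log2 fold changes were -0.014 for Rplp0, 0.014 for Rpl12, 0.019 for Rplp1 and 0.037 for Rplp2. Rplp1 was at 173, 165, 177, 176 and 169.5 CPM in WT 1 to 5 and 187, 174, 193, 181 and 168 CPM in KO 1 to 5, so that KO 1, KO 3 and KO 4 lay above every WT mouse and KO 5 lay near the lowest. That was a log2 fold change of 0.069 (SE 0.041) and an edgeR adjusted p of 0.80. Rplp2, its partner, was at 57.5, 54.6, 59.4, 60.0 and 60.1 CPM in WT and 63.7, 58.6, 63.6, 63.2 and 56.7 CPM in KO, and again KO 1, KO 3 and KO 4 exceeded every WT mouse. This corresponds to a log2 fold change of 0.069 (SE 0.045) and an edgeR adjusted p of 0.806. Rpl12 had a log2 fold change of 0.026 and Rplp0 one of 0.0046. Rpl5 and Rpl11, which bind the 5S RNA and can hold back the p53 ligase Mdm2 when free of the ribosome, had log2 fold changes of 0.017 (SE 0.052) and 0.046 (SE 0.045).

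Rps2, Rpsa, Rps3 and Rps29 were among the 6 small subunit members with the smallest unadjusted p-values, each with a positive fold change and an adjusted p of at least 0.792. Rps2, at the entry of the messenger RNA channel, was at 123, 120.3, 130.4, 128 and 131 CPM in WT 1 to 5 and 132, 132, 141, 127 and 132 CPM in KO 1 to 5, a log2 fold change of 0.071 (SE 0.038). KO 3 was highest, KO 4 lay inside the WT range and the groups overlapped. Rpsa, also known as the laminin receptor precursor, was at 123, 129, 134, 129.7 and 125 CPM in WT and 135, 126, 142, 135 and 129.8 CPM in KO, a log2 fold change of 0.062 (SE 0.039). KO 1, KO 3 and KO 4 lay above every WT mouse, and KO 2 and KO 5 did not.

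Rps3 had no coding window in any other gene, so no other annotated transcript holds a read-length stretch of its coding letters. Rps3, at the messenger RNA entry, was at 176, 178, 184, 185 and 178 CPM in WT 1 to 5 and 194, 185, 190.1, 189.6 and 178 CPM in KO 1 to 5, a log2 fold change of 0.054 (SE 0.034, 95% interval -0.018 to 0.13). KO 1, KO 3 and KO 4 lay above every WT mouse, and KO 5 lay under 4 of the 5.

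Rps29, a zinc-binding protein, was at 93.1, 85.3, 94.3, 92.0 and 92.1 CPM in WT 1 to 5 and 105, 93.0, 102, 89.8 and 90.1 CPM in KO 1 to 5, a log2 fold change of 0.072 (SE 0.048). KO 1 and KO 3 were high, WT 2 was low and the groups overlapped. Rps6 was at 75.1, 83.8, 81.2, 82.9 and 76.3 CPM in WT and 78.8, 82.6, 84.6, 84.5 and 78.8 CPM in KO, a log2 fold change of 0.036 (SE 0.042). For Rps6, WT 1 and WT 5 were the lowest and the other 3 WT mice lay inside the KO range. Rps27a, made as a fusion with ubiquitin, had a log2 fold change of 0.027 (SE 0.040).

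Heterozygous loss of certain ribosomal protein genes causes Diamond-Blackfan anaemia in people, and 19 such genes were listed. Of these, 18 were tested, 0 passed and 12 were above 0 (median 0.029). At an unadjusted p under 0.05 in edgeR, 0 were higher and 1, Rpl15, was lower (2.54% and 3.75% of all genes). Rps19, the gene most often mutated in that disease, was at 35.3, 35.1, 38.5, 36.8 and 37.6 CPM in WT 1 to 5 and 39.4, 37.8, 40.7, 37.9 and 34.1 CPM in KO 1 to 5. KO 3 and KO 1 were the highest and KO 5 the lowest of all 10. That was a log2 fold change of 0.053 (SE 0.051) and an edgeR adjusted p of 0.877. After the GC and length correction the log2 fold change of Rps19 was -0.00038. Rps26, which touches the messenger RNA upstream of the start codon, and Rps24 had log2 fold changes of 0.032 and 0.028. The members on the X chromosome, of which every male has 1 copy, were at 0.075 (Rpl36a), 0.037 (Rps4x), 0.025 (Rpl10) and -0.026 (Rpl39) on the log2 fold change scale.

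Libraries differed in ribosomal protein RNA as a whole, and those differences cut across genotype. For each gene, log2 CPM was set against its own mean over the 10 libraries, and these deviations were averaged over members. The 74-member mean was -0.053, -0.034, 0.037, 0.028 and -0.048 in WT 1 to 5 and 0.043, -0.027, 0.087, 0.024 and -0.057 in KO 1 to 5. KO 3 was the highest and KO 5 the lowest, so the extremes came from the same genotype and the groups overlapped across most of their range. The difference of the means, KO minus WT, was 0.028, smaller than the SD over mice of 0.043 in WT and 0.057 in KO. In KO 3, 72 of 74 members lay above their own mean and 36 had their highest value, whereas 23 had their lowest value in WT 1 and 18 in KO 5. As a share of all counts, members made up 0.629% in WT 1 and 0.717% in KO 3, the lowest and the highest.

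**Figure D3:**
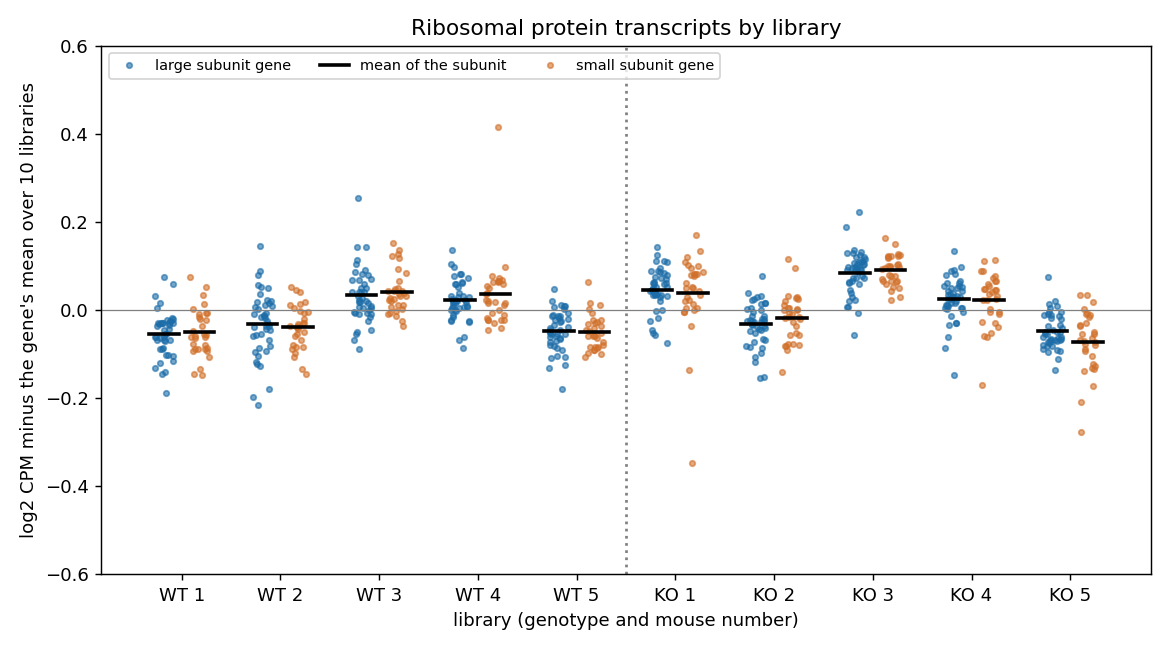
Deviation of log2 CPM from the gene's mean over 10 libraries for every tested large and small subunit gene, by library. Points are genes and bars the mean of each subunit. Nearly all genes of KO 3 lie above 0 and most of WT 1, WT 5 and KO 5 below it.

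The size of the genotype difference moved with single mice. The median log2 fold change of the 74 members was 0.032 with all mice, 0.0135 without KO 3, 0.0207 without WT 1, 0.0204 without WT 5 and 0.0487 without WT 3. The number above 0 was 53 without KO 3 and 52 without KO 1. In the fits that left out 1 mouse, 22 of the 74 tested members changed sign at least once and 52 did not.

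Other measures also stood apart in these libraries. In KO 3 the mean deviation of the choroid, meningeal and blood markers was -0.30, the lowest of all libraries, and that of the oligodendrocyte markers was -0.13, also the lowest. KO 3 was the lowest library for the astrocyte markers (-0.12) and the microglia markers (-0.096) too, and low for the endothelial and mural markers (-0.11), which were lowest in WT 1 (-0.19). Of the 17 choroid, meningeal and blood genes 11 were tested, and they summed to 121.5 to 136 CPM in WT and 107 to 132 CPM in KO. The haemoglobin rows Hba-a1, Hba-a2, Hbb-bs and Hbb-bt were at 0 in every library. How reads that fit several places were counted is not given, so these rows do not show whether blood RNA was absent. All 18 oligodendrocyte genes were tested, summing to 1713 to 1965 CPM in WT and 1683 to 2075 CPM in KO. All 15 astrocyte, 15 microglia and 16 endothelial and mural genes were tested. They summed to 7743 to 8751, 416 to 467 and 339 to 398 CPM in WT and to 7376 to 8788, 403 to 465 and 330.2 to 394 CPM in KO. In WT 1 the interneuron markers were at 0.305 and the granule neuron markers at -0.16. Of the 16 interneuron genes 2 were above 0 in KO against WT (median -0.10), and all 16 summed to 843.5 to 1006 CPM in WT and 821 to 886 CPM in KO. At an unadjusted p under 0.05 in edgeR, 0 of the 16 were higher and 5 lower (2.54% and 3.75% of all genes), and 0 passed the adjusted threshold. The ribosomal RNA precursor row Rn45s held 0.603% to 1.85% of counts, and WT 1, with the lowest member share, had the highest. Across the 10 libraries the members' mean had a Pearson r of -0.356 with the Rn45s share and 0.502 with total counts, as descriptions. Their part in the library differences was not tested.

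The large and small subunits moved together from library to library. The large subunit mean was -0.054, -0.032, 0.033, 0.023 and -0.047 in WT 1 to 5 and 0.047, -0.033, 0.085, 0.025 and -0.048 in KO 1 to 5. The small subunit mean was -0.051, -0.038, 0.042, 0.034 and -0.049 in WT 1 to 5 and 0.039, -0.019, 0.089, 0.023 and -0.071 in KO 1 to 5. The sign was the same for both subunits in each of the 10 libraries. The Pearson r between them was 0.98 and the Spearman rho 0.952 over 10 libraries, and r was 0.98 without KO 5 and KO 3. Both means come from the same libraries and share their depth and scaling. Large minus small was -0.0029 ± 0.0074 in WT and 0.0029 ± 0.014 in KO (SD, n = 5 each), with its highest value of 0.024 in KO 5 and its lowest of -0.014 in KO 2. The balance of the subunits thus overlapped between genotypes, and the difference lay within the spread between mice.

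**Figure D4:**
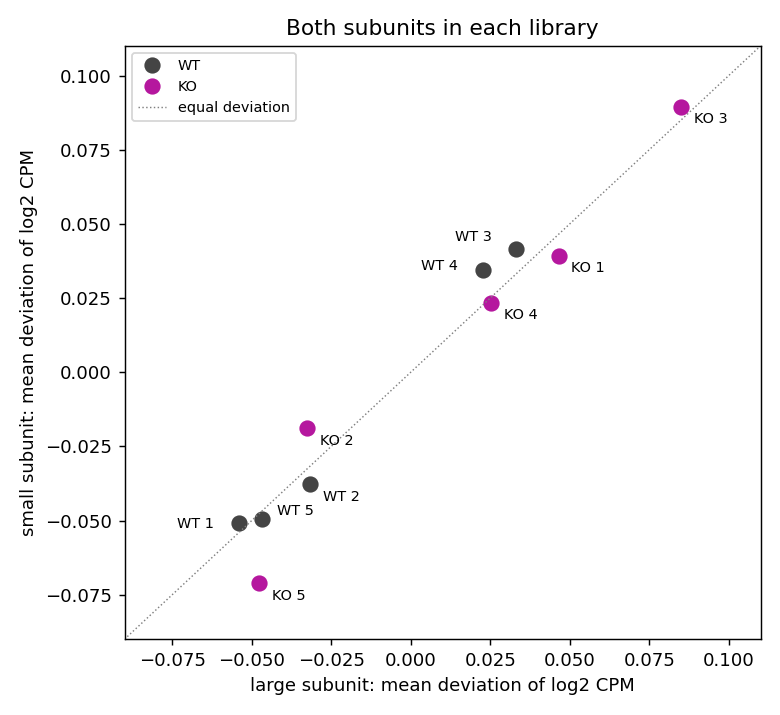
Mean deviation of log2 CPM of the small subunit genes against that of the large subunit genes in each of the 10 libraries, with a dotted line where they are equal. The libraries lie along the line (Pearson r 0.98) from KO 5 and WT 1 to KO 3.

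Single members covaried as well. Over the 2701 pairs of members the mean Pearson r across 10 libraries was 0.487, and 94.3% of pairs were positive. Without KO 3 it was 0.394. With all libraries it was 0.478 within the large subunit, 0.488 within the small and 0.493 between them, so pairs across the subunits were close to pairs within one. With the genotype means removed it was 0.50, so the covariation was present within genotypes. The mean was 0.000117 over all pairs of genes tested and 0.00787 over pairs of other genes in the middle of the members' range of levels. The first principal component held 49.0% of the members' variance, and all 74 had the same sign on it. Their mean had an SD of 0.050 over libraries, against 0.0089 if members with the same SDs had varied independently. Every pair shares the libraries, their depth and their scaling.

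Other gene lists give a scale for this. The mean pairwise r over the 10 libraries was 0.236 for the other TOP genes, 0.300 for short nuclear transcripts of the respiratory chain, 0.103 for ribosome biogenesis genes, 0.0885 for translation factors and 0.0759 for mitochondrial ribosomal proteins. The 15 members with under 50% of their windows shared with other genes had a mean pairwise r of 0.626, and all of those pairs were positive. Their median log2 fold change was 0.054 and 13 of 15 were above 0. The mean r of these 15 was above that of all members (0.487).

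The members' fit to the common pattern ranged widely. The correlation of each member with the mean of the other 73 had a median of 0.73, was above 0 for all 74, above 0.5 for 61 and above 0.8 for 26. The examples named next were chosen after their values were seen. Among the highest was Rpl13a (0.947). The lowest were Rpl15 (0.0965), Rps27 (0.132), Rpl35 (0.143) and Rps26 (0.164). With the genotype means removed the correlation was 0.478 for Rpl15, 0.379 for Rps27 and 0.383 for Rpl35, and the lowest were then Rps26 (0.109) and Rpl10a (0.290). Rps26 was at 62.4, 66.0, 64.6, 69.3 and 65.9 CPM in WT 1 to 5 and 60.3, 66.3, 69.3, 71.6 and 67.8 CPM in KO 1 to 5, and KO 1, which was high for most members, was its lowest library.

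Spread over libraries also differed between members. The median SD of log2 CPM over the 10 libraries was 0.071 for members and 0.106 for all genes tested, which include many genes of lower level. It was 0.059 for translation factors, 0.066 for the other TOP genes and 0.067 for the short respiratory chain transcripts. For ribosome biogenesis genes it was 0.080 and for mitochondrial ribosomal proteins 0.083. A small spread was thus not particular to members. Among members the SD was largest for Rps27 (0.202, from 13 to 29 counts), Rpl29 (0.141) and Rpl27 (0.119). Rpl29, a heparin-binding 60S protein, was at 25.8, 22.7, 26.3, 29.0 and 23.3 CPM in WT 1 to 5 and 28.8, 26.8, 30.1, 28.3 and 24.1 CPM in KO 1 to 5, with KO 3 and WT 4 high and WT 2 and WT 5 low. The smallest SDs belonged to Rps15a (0.0358), Rpl24 (0.0435) and Rpl19 (0.0449). Rps15a was at 134, 143, 139, 145 and 136 CPM in WT and 139, 136, 141, 139 and 138 CPM in KO, with the KO values inside the WT range.

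Relatives of the members outside the symbol rule showed no call either. Fau, a fusion that yields the 40S protein eS30, was at 34.6 ± 0.759 CPM in WT and 34.8 ± 2.44 CPM in KO (SD, n = 5 each). Of 9 paralogs of members 5 were tested and 0 passed. Rpl22l1, a paralog of Rpl22, was at 20.7 ± 2.03 CPM in WT and 18.8 ± 1.17 CPM in KO, a log2 fold change of -0.14 (SE 0.069, edgeR adjusted p = 0.789), while Rpl22 itself was at 101 ± 2.78 and 106 ± 3.80 CPM with a log2 fold change of 0.061 (SE 0.036). Rpl7l1 was at 38.5 ± 1.26 and 39.3 ± 2.14 CPM. Rps27l was at 5.31 ± 0.379 and 4.95 ± 0.730 CPM, and the Rps27 row at 0.659 ± 0.0883 and 0.566 ± 0.0866 CPM. The Rps27 row held 13 to 29 counts with 100% of its coding windows shared. Rpl12, also with 100% shared, held 2864 to 4907 counts, and the reason for the low Rps27 count was not tested. How shared reads were counted is not given, so these rows do not rank the genes by expression. The row Rps27rt had 0 counts in every library. Of 7 rows named as ribosomal protein pseudogenes 3 were tested, and the highest, Rpl14-ps1, had 56 to 105 counts.

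Across the rest of the translation pathway 0 genes passed in any list in the edgeR fit. Of all genes tested in that fit, 2.54% were higher and 3.75% lower at an unadjusted p under 0.05, which gives a scale for the counts that follow. Among 37 translation factors 17 were above 0 (median -0.0047), with 0 higher and 3 lower at an unadjusted p under 0.05. Those 3 were Gspt1, the release factor eRF3a, at -0.10 (SE 0.036), Eif1ax, a start codon scanning factor, at -0.096 (SE 0.038), and Eif5, which triggers GTP hydrolysis at the start codon, at -0.12 (SE 0.054). Among 27 other TOP genes 18 were above 0 (median 0.018), and 1 was lower at that level, Tpt1, the translationally controlled tumour protein, at -0.088 (SE 0.039). Among 66 ribosome biogenesis genes 42 were above 0 (median 0.0095). Of these, 1 was higher and 1 lower at an unadjusted p under 0.05: Nob1, the endonuclease that finishes 18S RNA, at 0.10 (SE 0.048), and Nmd3, the 60S export adaptor, at -0.13 (SE 0.055). Among 42 genes of mTORC1 and S6 kinase signalling 20 were above 0 (median -0.0065), and Rragb, a Rag GTPase of amino acid sensing, was at -0.11 (SE 0.038). All of these had an edgeR adjusted p of 0.788.

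Mitochondrial ribosomal proteins, which build a separate ribosome inside the organelle, had 46 of 78 genes above 0 (median 0.012). At an unadjusted p under 0.05 in edgeR, 3 were higher and 1 lower (2.54% and 3.75% of all genes). Mrps18b was at 7.69 CPM in WT and 9.25 CPM in KO, a log2 fold change of 0.27 (SE 0.077), Mrps5 was at 0.13 (SE 0.043) and Mrpl1 at -0.17 (SE 0.056), each with an edgeR adjusted p of 0.788. Among 51 short respiratory chain transcripts 20 were above 0 (median -0.0071), and 0 were higher and 2 lower at an unadjusted p under 0.05. These were Ndufc2 at -0.13 (SE 0.042) and Ndufb4 at -0.24 (SE 0.096), both subunits of complex I. Over the 10 libraries the cytosolic members' mean had a Pearson r of 0.784 with the mean of the biogenesis genes, 0.777 with the other TOP genes, 0.715 with the mitochondrial ribosomal proteins, 0.528 with the respiratory chain transcripts and 0.32 with the translation factors, as descriptions over libraries that all lists share.

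The genes outside the family most like it over the 10 libraries were Sltm, an RNA-binding SAFB-like protein (Pearson r 0.934 with the members' mean), Pbx2, a homeobox factor (0.905), Nme6, a nucleoside diphosphate kinase (0.899), Nup85, a nuclear pore scaffold (0.899), and Ovgp1, an oviductal glycoprotein (0.895). They were taken as the highest of all genes tested, so values this high are a description of 10 libraries.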

How the data were processed

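Poly(A) RNA of the dentate gyrus was measured in 5 wild-type and 5 Fndc5 knockout mice. The authors deposited raw read counts per gene symbol for 24982 rows, with no normalization. The tools STAR 2.5.1b and Cufflinks 2.2.1 and the build mm10 are named, per the submitters' processing notes. Whether counting used strand, and what was done with reads that fit several places, is not given in the sources used here.

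Groups came from the sample titles. Depth was 26226375 to 43802079 counts per library. The median 95% interval half-width for a member, from the edgeR fit over 5 mice of each genotype, was 0.093 (log2). The members and gene lists were chosen with earlier results of these data known. Counts were filtered with filterByExpr, scaled by TMM and compared with edgeR 4.0.16 (glmQLFit, glmQLFTest) in R 4.3.3, with Benjamini-Hochberg adjustment over 14867 genes and a threshold of 0.05. CPM used TMM-scaled library sizes, and covariation used log2 CPM with a prior count of 2. The steps were tested on simulated counts.

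Lengths, coordinates and shared windows came from GENCODE M21 (GRCm38), and start sequences from RefSeq (GRCm38.p6). Of 24982 symbols, 24490 matched GENCODE. Coding length was chosen as the scale after levels on full transcript length had been seen, because some annotated untranslated regions were several kilobases long. The 20% and 50% limits on shared windows, the reference sets for covariation, the motifs and the definitions of a tract were also chosen after values were seen, and all motifs and tract definitions counted are reported.

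Named genes were Fndc5, the 6 members of each subunit with the smallest p, the 3 highest and 3 lowest levels in each subunit, the 3 largest and 3 smallest SDs, members whose groups do not overlap, members of the role lists, up to 3 genes with the smallest p in each other list, 4 related rows and the 5 most similar genes. Not all are printed, and some of these genes are not reported here. Alternatives were DESeq2 1.42.0 (test and size factors), limma 3.58.1 (voom, with and without sample weights), upper-quartile scaling, TMM without ribosomal protein genes, other filters, no Rn45s row, a GC and length correction, the mouse number as a block, and each mouse left out.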

Additional observations from a re-analysis of the deposited data

Results flagged for a closer look

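Rps29 in WT 2 was at 85.3 CPM, under the other 4 WT mice at 92.0 to 94.3 CPM, a gap of 0.744 of the group's whole range. It was the only one of 106 groups of 5 libraries checked for a single far value. Chance flags about 1 in 20 such groups, or 5.3 here.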

How the results depend on the processing

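In all 21 alternatives 0 members passed the threshold. Members above 0 numbered 60 of 74, 49 after the GC and length correction, 65 with upper-quartile scaling and 52 to 67 with 1 mouse left out. The members' median was 0.0218 to 0.042 in the alternatives with all mice and 0.0135 to 0.0487 with 1 mouse left out. It was 0.0113 to 0.0486 for the large subunit and 0.0171 to 0.0489 for the small with 1 mouse left out, and stayed above 0 in each. Restricted to the 15 members with under 50% of windows shared, an alternative added after seeing the data, it was 0.0539. Genes past the threshold numbered 1, 3 with the DESeq2 Wald test, 8 with the replicate block and 1 to 3 with 1 mouse left out (2 without KO 2, 3 without WT 1), and the cause was not tested. The mean pairwise r of members was 0.394 (without KO 3) to 0.517 with 1 library left out and 0.487 to 0.588 with other scalings, and r of the subunit means was 0.968 to 0.988 with 1 library left out, alternatives also added after seeing the data. Of 2161 values for 103 named genes under the alternatives, 55 (17 genes) differed in sign from the value reported, all of them without a call.

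With the mouse number as a block, the median was 0.0333 and 60 members were above 0, with 0 called. Same-numbered mice deviated together with r of 0.209, 0.204, 0.108, 0.00901 and 0.0282. In WT 1, WT 2, WT 5, KO 1, KO 2 and KO 3 the closest mouse of the other genotype had the same number. In WT 3, WT 4, KO 4 and KO 5 it did not. The sample titles state no pairing, so the main fit left the number out. The sample descriptions carry running numbers that alternate between WT and KO in the order of the mouse number. Whether mice of the same number were handled together was not tested. Counts at or near 0 leave little to compare in Rpl26, Rpl30, Rpl34 and Rps27, and reads shared with copies leave the levels of members uncertain.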
